A study of Homo sapiens with 8 samples.

Results

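The proteasome subunit mRNAs were the 42 entries, of 26902 in the deposited table, whose symbol was PSMA, PSMB, PSMC or PSMD with a number, or PSME1, PSME2, PSME3 or PSME4. They comprised 18 core genes (PSMA and PSMB) and 24 regulatory genes (PSMC, PSMD and PSME). The study overexpressed QKI7, which is 1 of the isoforms of QKI, a protein that binds RNA, in the human osteosarcoma cell line U2OS and compared these cells with U2OS cells carrying an empty vector. Every library came from cells given 0.5 mM sodium arsenite for 1 h, an oxidative stress that lowers translation initiation, so the vector cells were stressed too and untreated cells were not analysed here. The 4 groups, of 2 libraries each, were QKI7 footprint, vector footprint, QKI7 input and vector input. Footprints are ribosome-protected RNA fragments of 17 to 34 nt, and inputs are RNA of the same kind of cells depleted of ribosomal RNA. Nothing in the labels says that a group's libraries are from different cultures, and the p-values therefore cover the spread between libraries, which may be only technical.

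The proteasome degrades proteins marked with ubiquitin. Its core particle is a stack of rings, in which the outer alpha rings gate entry and the inner beta rings carry the proteolytic sites. The regulatory particle that caps it has a base, whose ATPases unfold the substrate, and a lid, whose subunits recognise substrates and remove ubiquitin. The core and the regulatory particle have fixed subunit stoichiometries, and arsenite, which damages proteins, is a known inducer of proteasome genes. By role the core genes were 7 of the alpha ring, 3 catalytic subunits of the beta ring, 4 beta subunits without a proteolytic site, 2 inducible catalytic subunits (PSMB8 and PSMB10) and 2 tissue-restricted subunits (PSMA8 of testis and PSMB11 of thymus). The regulatory genes were 6 base ATPases, 3 other base subunits, 8 lid subunits, 3 assembly chaperones that carry PSMD symbols and 4 activators of the PSME type. The remaining inducible catalytic subunit, PSMB9, was not analysed here.

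Values are given as scaled TPM, a length-corrected share of the messenger RNA of a library. Protein-coding entries were rescaled to a total of 1000000 in each library, and the libraries were then brought to a common scale by the median ratio over genes. Before rescaling, protein-coding entries held 0.686% to 0.710% of all TPM in footprint libraries and 3.73% to 4.52% in inputs, and the inputs of QKI7 cells (4.52% and 4.24%) lay above those of vector cells (3.73% and 4.0%). Log2 values of replicate libraries correlated at 0.964 to 0.988 across 3205 genes, which are not independent. QKI itself had 38330 and 37190 scaled TPM in QKI7 inputs, against 77.8 and 82.5 in vector inputs, as the labels state. Levels of cell type markers are given on the rescaled total of 1000000, without the median-ratio step, and so differ in scale from the other values. Of 10 mesenchymal and osteosarcoma markers, 8 were at 1 or more in every input, led by VIM, SPARC, FN1 and COL1A1, while the bone markers RUNX2 and ALPL were low. This list summed to 2924 to 2962 in QKI7 inputs and 3543 to 3701 in vector inputs. Of 6 blood markers 1 was at that level in every input, and the list summed to 2.21 to 4.95 in QKI7 inputs and 6.98 to 18 in vector inputs. Of 5 neural markers 4 were, led by TUBB3, and the list summed to 51.7 to 64.6 in QKI7 inputs and 60.4 to 72.4 in vector inputs. Of 6 epithelial markers only 2, KRT8 and KRT18, were at 1 or more in every input, while EPCAM, CDH1, KRT5 and KRT14 were low. The epithelial list summed to 864 to 890 in QKI7 inputs and 1116 to 1187 in vector inputs, nearly all of it from KRT8 and KRT18. The part of the differences between these lists' sums in the results below was not tested.

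Short stretches from the promoters of 4 members show a sequence motif that some members of this gene family carry. Stress induction of proteasome genes is known to run through the antioxidant response element, bound by factors that include NFE2L1, so its core TGACNNNGC was searched on both strands from 250 bases before to 50 bases after each RefSeq start site, of which a gene can have several. The stretches are from RefSeq (GRCh38.p14), 5′ to 3′ on the strand of the gene, with the motif in capitals. They were chosen because PSMA4 and PSMB3 are the core members with the motif, and PSMD3 and PSMD12 are among the regulatory members with it that are described with the QKI7 results. Others, such as PSMC4, have a match that is not printed. PSMD3 has a further match, on the opposite strand and after its start site. PSMA4 has 3 such start sites, and its stretch precedes the last of them, at position 78540786, so it lies within the span of the gene.
PSMA4, chr15:78540648-78540680, plus strand: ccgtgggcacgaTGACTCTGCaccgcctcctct
PSMB3, chr17:38752625-38752657, plus strand: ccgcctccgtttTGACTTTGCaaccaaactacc
PSMD3, chr17:39980758-39980790, plus strand: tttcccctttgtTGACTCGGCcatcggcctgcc
PSMD12, chr17:67366722-67366754, minus strand: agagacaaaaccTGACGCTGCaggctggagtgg
The motif was present in 2 of 14 core members with a promoter sequence (14.3%) and in 10 of 23 regulatory members (43.5%), against 16.1% of 27305 genes. The match is a description of letters in a window and not evidence of binding.

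In inputs, regulatory subunit mRNAs outweighed core subunit mRNAs, and in footprints the order was turned round. Core genes summed to 5602 ± 95.5 scaled TPM in QKI7 footprints, against 979 ± 15.8 in QKI7 inputs (SD, n = 2 each). In vector cells they summed to 6522 ± 89.1 in footprints, against 1138 ± 14.1 in inputs. Regulatory genes summed to 3512 ± 67.9 in QKI7 footprints, against 3047 ± 70.7 in QKI7 inputs, and to 3899 ± 5.66 in vector footprints, against 3528 ± 53.0 in vector inputs. The ratio of core to regulatory sums was therefore 1.60 ± 0.058 in QKI7 footprints and 1.67 ± 0.0205 in vector footprints, against 0.321 ± 0.00226 in QKI7 inputs and 0.323 ± 0.00884 in vector inputs. No footprint library overlapped an input library in this ratio, and the 4 inputs lay within 0.316 to 0.329 whichever construct the cells carried.

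**Figure D1:**
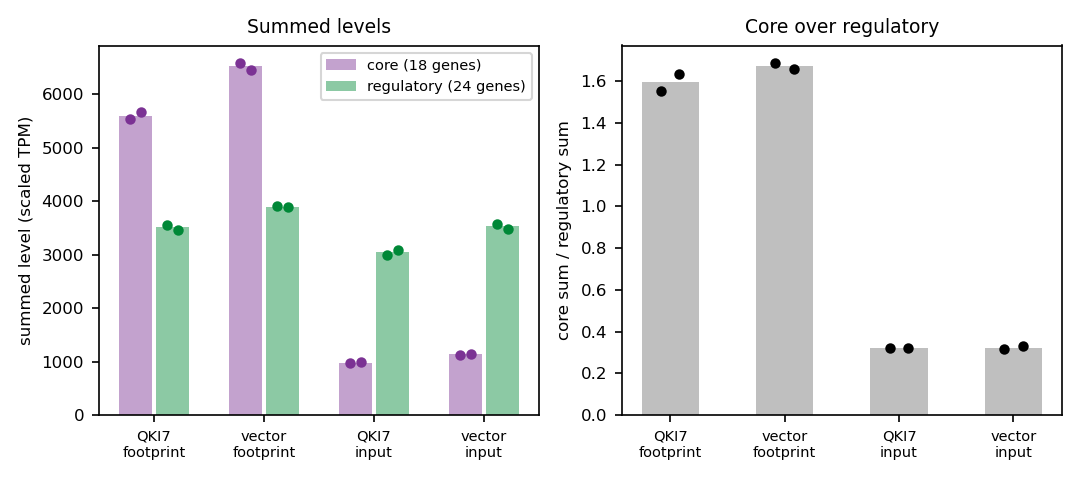
Summed scaled TPM of the 18 core and 24 regulatory genes in each library, with footprint libraries left of inputs and QKI7 left of vector. Points are single libraries and bars are means of 2, and the right panel gives core over regulatory sums. Core sums were 5535 and 5670 in QKI7 footprints, against 968 and 990 in QKI7 inputs, while regulatory sums were 3560 and 3464 in QKI7 footprints, against 2997 and 3097 in QKI7 inputs.

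The summed levels hid a wide spread among subunits that assemble in equal numbers. Among the 14 constitutive core genes the highest mean exceeded the lowest 19.6-fold in QKI7 footprints and 17.8-fold in vector footprints, against 29.0-fold in QKI7 inputs and 33.8-fold in vector inputs. PSMB2, a beta subunit without a proteolytic site, was the lowest of them in all 4 groups, with 53.4 and 76.9 scaled TPM in QKI7 footprints and 79.5 and 74.5 in vector footprints. PSMA7, an alpha subunit, was the highest in inputs, and PSMB3, a beta subunit, was the highest in footprints. Among the 17 base and lid genes the spread was 8.99-fold in QKI7 footprints and 6.91-fold in vector footprints, against 7.03-fold in QKI7 inputs and 11.1-fold in vector inputs. Across the 14 constitutive core genes, log2 footprint and log2 input levels correlated at r = 0.592 in QKI7 cells and 0.551 in vector cells, and across the 17 base and lid genes at 0.426 and 0.366, as descriptions over genes measured in the same libraries.

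Of the 42 genes, 37 were tested, having a mean of at least 0.2 TPM as deposited in inputs and in footprints. PSMA8, PSMB11, PSMD5, PSMD9 and PSME4 did not pass. PSMA8 was listed at 0 in every library but vector input 2, at 0.239 scaled TPM, and PSMB11 was listed at 0 in 5 of 8 libraries. The chaperone genes PSMD5 and PSMD9 were low in all libraries, between 3.14 and 23.1 scaled TPM. PSME4, the large nuclear activator, was different in kind. It had 28.3 and 27.7 scaled TPM in QKI7 footprints, against 180 and 169 in QKI7 inputs, and 12.3 and 17.9 in vector footprints, against 155 and 156 in vector inputs.

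Footprint levels were then set against input levels within each construct. With limma, 27 of the 37 genes were higher and 8 lower in QKI7 footprints than in QKI7 inputs (adjusted p under 0.05), where 39.2% of all 3205 genes were called higher and 39.7% lower. In vector cells 24 were higher and 8 lower, beside 40% and 41.2% of all genes. Most genes therefore differed between library types on this scale, and the position of a gene among all genes says more than its call. Of the members' calls, 27 of 35 in QKI7 cells and 28 of 32 in vector cells were kept in all 8 fits that left out 1 library. In vector cells the exceptions were PSMB10 (log2 ratios of 0.31 to 1.43, lost without either vector input, QKI7 footprint 1 or vector footprint 2), PSMC4 and PSMD1 (each lost without vector input 1, at -0.62 and -0.51 at the smallest) and PSMD11 (-0.46 to -0.30, lost without any 1 input or vector footprint 2). In QKI7 cells PSMD3 (-0.38 to -0.21) was lost without any 1 input or QKI7 footprint 1. PSMC5 and PSMD11 were lost there without QKI7 input 2, PSMD13 without QKI7 input 1 and PSMB10 without QKI7 footprint 1. PSMD2 (-0.46 to -0.19) and PSMD4 were lost without QKI7 input 2 or QKI7 footprint 2, and PSME2 (0.32 to 0.91) without QKI7 input 1 or QKI7 footprint 2. The median log2 ratio of footprint to input was 2.62 for core genes and 0.56 for regulatory genes in QKI7 cells, beside -0.01 for all genes. In vector cells it was 2.80 for core genes and 0.18 for regulatory genes, beside 0.01 for all genes. Of the 16 core genes tested, 13 lay above the 75th percentile of all genes in each construct, while 4 of 21 regulatory genes did in QKI7 cells and 5 in vector cells.

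Among alpha ring genes, 6 of 7 were higher in footprints in each construct. PSMA2 had 484 and 549 scaled TPM in QKI7 footprints, against 19.1 and 23.8 in QKI7 inputs, a log2 ratio of 4.53 ± 0.150 (SE). In vector cells it had 549 and 464 in footprints, against 22.2 and 23.0 in inputs, a ratio of 4.42. This was the highest ratio of any tested member in both constructs, and no footprint library came near an input library. Within the ring PSMA4 followed with log2 ratios of 3.44 in QKI7 cells and 4.21 in vector cells. PSMA7 (chr20:62136733-62143394, GRCh38.p14) was the exception in the ring. It had 319 and 314 scaled TPM in QKI7 footprints, against 284 and 322 in QKI7 inputs, and 422 and 425 in vector footprints, against 449 and 433 in vector inputs. The log2 ratios of 0.06 and -0.06 did not pass the test, with adjusted p = 0.498 in QKI7 cells and 0.528 in vector cells (limma). The whole ring summed to 624 ± 7.91 scaled TPM in QKI7 inputs and 735 ± 9.09 in vector inputs (SD, n = 2 each), of which PSMA7 made up 303 and 441.

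All 9 tested beta ring genes were higher in footprints in both constructs. PSMB3 had 1266 and 1286 scaled TPM in QKI7 footprints, against 71.0 and 74.2 in QKI7 inputs. In vector cells it had 1507 and 1233 in footprints, against 83.5 and 69.6 in inputs, and the log2 ratios were 4.12 and 4.14. PSMB6, the caspase-like catalytic subunit, had 203 and 151 in QKI7 footprints, against 15.3 and 15.8 in QKI7 inputs, and 300 and 280 in vector footprints, against 12.2 and 17.5 in vector inputs. Its log2 ratio was 3.41 in QKI7 cells and 4.22 in vector cells. The inducible gene PSMB8 had ratios of 3.31 and 3.24, similar in size to those of the beta genes, whereas PSMB10 had 1.15 and 0.87.

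The base and the lid held genes on both sides. Among the base ATPases, PSMC2 and PSMC6 were higher in footprints, with log2 ratios of 2.23 and 1.16 in QKI7 cells and 2.20 and 1.65 in vector cells. PSMC4 was lower, with ratios of -1.07 in QKI7 cells and -0.72 in vector cells. In the lid, PSMD14, the deubiquitinase that removes ubiquitin chains, had 149 and 169 scaled TPM in QKI7 footprints, against 49.3 and 57.2 in QKI7 inputs, and 221 and 251 in vector footprints, against 59.7 and 55.5 in vector inputs. PSMD7, the inactive partner with which PSMD14 pairs, had 88.0 and 89.2 in QKI7 footprints, against 249 and 263 in QKI7 inputs, and 86.3 and 99.4 in vector footprints, against 279 and 282 in vector inputs. These partner subunits thus lay at log2 ratios of 1.56 and -1.52 in QKI7 cells and of 2.01 and -1.59 in vector cells, and PSMD7 was the lowest of all tested members. The large base scaffold genes PSMD1 and PSMD2 were both lower in footprints, with -1.17 and -0.32 in QKI7 cells and -0.58 and -1.18 in vector cells.

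Among the remaining regulatory genes, the assembly chaperone PSMD10 had log2 ratios of 2.66 and 2.64, the largest of any regulatory gene tested, on low input levels of 6.46 to 14.1 scaled TPM. The activator subunits PSME1 and PSME2, which form a ring induced by interferon, were higher in footprints in both constructs. PSME3, the nuclear activator, was lower in vector footprints (-0.61, adjusted p = 0.00375, limma), and in QKI7 footprints its ratio of -0.34 missed the threshold (adjusted p = 0.053). In a limma fit with no filter PSME4 had log2 ratios of -2.60 in QKI7 cells (adjusted p = 0.000189) and -3.30 in vector cells (adjusted p = 8.02e-05), and on TPM as deposited -2.88 and -2.71.

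The sign of these ratios depends on the common scale. On TPM as deposited the median of all genes was -1.97 in QKI7 cells and -1.81 in vector cells, and of the 32 members among the 5806 entries tested there, 5 were called higher and 24 lower in QKI7 cells, and 6 higher and 22 lower in vector cells. In that fit 98.2% of all entries were called in QKI7 cells and 97.6% in vector cells. The core median still exceeded the regulatory median there, by 1.65 in QKI7 cells and 1.81 in vector cells on the log2 scale, beside 2.06 and 2.61 on the common scale. Transcript length enters TPM and could differ in effect between short footprint fragments and inputs, and its part in the core-to-regulatory difference was not tested.

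**Figure D2:**
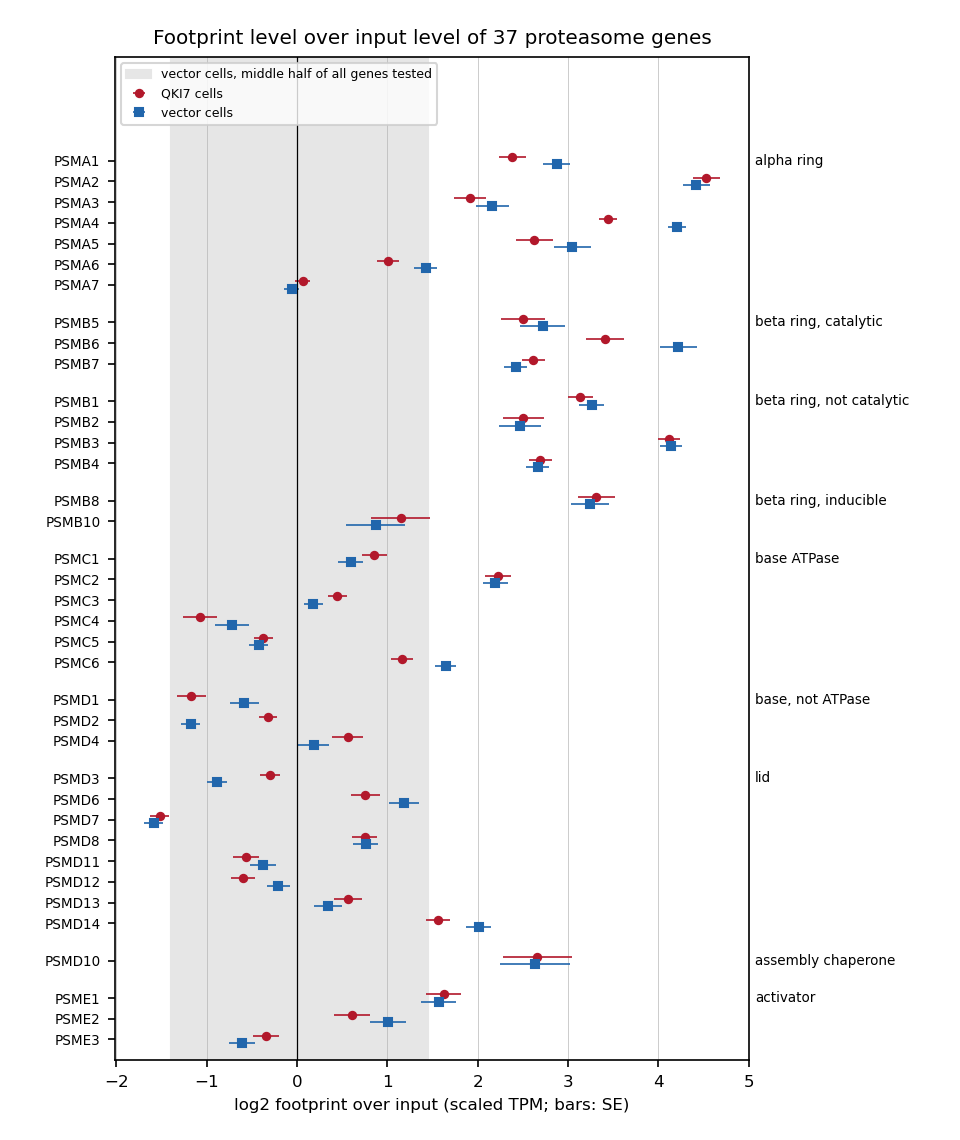
Log2 ratio of footprint to input level (scaled TPM) for the 37 tested genes by role, with bars for the SE. Circles are QKI7 cells, squares are vector cells, and the grey band is the interquartile range of all 3205 genes in vector cells. Core genes above the band numbered 13 of 16 in vector cells, PSMA7 lay at 0.06 and -0.06, and PSMD7 lay lowest at -1.52 and -1.59.

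Between constructs, the summed proteasome mRNA level was lower in QKI7 cells in both library types. All 42 genes summed to 9096 and 9134 scaled TPM in QKI7 footprints, against 10490 and 10350 in vector footprints, and to 3965 and 4088 in QKI7 inputs, against 4693 and 4638 in vector inputs. The groups did not overlap. Nor did they on TPM as deposited, of which the members held 0.00579% and 0.00594% in QKI7 footprints, against 0.00766% and 0.0075% in vector footprints, and 0.0181% and 0.0174% in QKI7 inputs, against 0.0182% and 0.0194% in vector inputs. The nearest inputs there, QKI7 input 1 and vector input 1, were close, at 0.01809% and 0.01816%. Core genes contributed 5535 and 5670 in QKI7 footprints, against 6585 and 6459 in vector footprints. Without PSMA7 and PSMD2, left out after their values were seen, the scaled sums were 8519 and 8607 in QKI7 footprints, against 9862 and 9723 in vector footprints, and 3397 and 3462 in QKI7 inputs, against 3772 and 3746 in vector inputs. On TPM as deposited the input groups overlapped without PSMA7 and PSMD2, and the footprint groups did not. The lower input sum therefore depended on the scale and on these genes. In bulk libraries, fewer cells carrying an mRNA and less of it per cell cannot be told apart.

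In inputs, PSMA7 and PSMD2 were lower and PSMA4 was higher in QKI7 cells. With limma, 1 of the 37 genes was higher and 2 were lower at an adjusted p under 0.05, where 1.09% of all genes were higher and 4.84% lower. The median log2 change was -0.13 over the members, with -0.08 for core and -0.16 for regulatory genes, beside -0.01 for all genes. QKI7 inputs lay wholly below vector inputs for 17 members and wholly above for 3, shares to be read beside 32.3% and 29.3% of all genes. PSMA7 had 284 and 322 scaled TPM in QKI7 inputs, against 449 and 433 in vector inputs (log2 change -0.54 ± 0.0823, adjusted p = 0.00602). PSMD2 (chr3:184299241-184309050), a base scaffold that docks ubiquitin shuttles, had 283 and 304 in QKI7 inputs, against 473 and 459 in vector inputs (-0.67 ± 0.103, adjusted p = 0.00635). By mean level in vector inputs, PSMA7 was the highest constitutive core gene and PSMD2 the highest base or lid gene. PSMA4 (chr15:78540405-78552417), the alpha subunit whose motif stretch is printed above, had 59.4 and 57.4 in QKI7 inputs, against 46.3 and 39.7 in vector inputs (0.44 ± 0.103, adjusted p = 0.0461).

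PSMB7, the trypsin-like catalytic subunit, lay just outside the threshold, with 60.5 and 58.6 scaled TPM in QKI7 inputs, against 86.3 and 86.5 in vector inputs (log2 change -0.53, adjusted p = 0.0515, limma). PSMB5, the chymotrypsin-like catalytic subunit, had 22.6 and 20.0 in QKI7 inputs, against 26.1 and 17.9 in vector inputs, and the groups overlapped. Input calls were sensitive to single libraries. Those for PSMA7 and PSMD2 were lost without QKI7 input 1 (adjusted p = 0.058 and 0.0594) and without vector input 1 (0.0656 and 0.0659), at log2 changes of -0.45 to -0.65, and that for PSMA4 was lost in all 8 fits that left out a library, with adjusted p from 0.0507 to 0.246. A limma fit that gave input and footprint libraries their own weights, chosen after seeing the data, called PSMA4 higher and 7 members lower, namely PSMA7, PSMB7, PSMC3, PSMC4, PSMC5, PSMD2 and PSMD4, where 6.08% of all genes were higher and 12.5% lower. On simulated data 11.9% of this fit's input calls were false at a log2 change of 1, against 3.52% without weights.

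In footprints, 7 of the 37 genes were lower in QKI7 cells and 0 were higher with limma at an adjusted p under 0.05, where 10.1% of all genes were lower and 15.9% higher. The median log2 change was -0.23 over the members, with -0.25 for core and -0.15 for regulatory genes, beside 0.01 for all genes. QKI7 footprints lay wholly below vector footprints for 17 members and wholly above for 4, beside 27.4% and 30.1% of all genes. The 7 were PSMA7 and PSMB6 of the core, the ATPases PSMC4 and PSMC6, and PSMD6, PSMD12 and PSMD14 of the lid. PSMC4 (chr19:39971165-39981764) had 92.7 and 59.9 scaled TPM in QKI7 footprints, against 141 and 126 in vector footprints, a log2 change of -0.83 ± 0.191 with adjusted p = 0.0159. PSMB6 had 203 and 151 in QKI7 footprints, against 300 and 280 in vector footprints, a change of -0.73 with adjusted p = 0.0361. For both genes the QKI7 libraries differed between themselves, yet both lay below the vector libraries.

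The lid genes showed smaller spreads. PSMD14 had 149 and 169 scaled TPM in QKI7 footprints, against 221 and 251 in vector footprints (log2 change -0.56 ± 0.137). PSMD6 had 104 and 108, against 169 and 160, in the same groups (-0.63 ± 0.161). PSMD12, whose promoter stretch is printed above, had 51.9 and 49.2 in QKI7 footprints, against 74.0 and 74.5 in vector footprints (-0.55 ± 0.131). The adjusted p of the 3 lid genes lay between 0.0182 and 0.0235. PSMA7 had the smallest adjusted p of the 7, 0.00798, at a log2 change of -0.42 ± 0.0823, and was called lower in inputs as well. PSMC6 had a change of -0.41 with adjusted p = 0.0358.

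On simulated data, in which the spread was a smooth function of level within each library type, 15.1% of footprint calls were false at a log2 change of 1, more than the threshold allows. With library-type weights, where 3.31% of all genes were lower and 9.3% higher, PSMC4 was the 1 member still called (adjusted p = 0.0472), and the other 6 had adjusted p of 0.0758 to 0.182. When single libraries were left out, the calls for PSMA7 and PSMD12 were kept in all 8 fits. That for PSMC4 was lost without vector footprint 1 (adjusted p = 0.0701), and that for PSMD14 without QKI7 footprint 1 (0.0698) or vector footprint 2 (0.073). PSMD6 was lost without any 1 of the 4 footprint libraries (0.0557 to 0.0767). PSMC6 was lost without QKI7 footprint 2, vector footprint 1, vector input 1 or vector input 2 (0.0594 to 0.145). PSMB6 was lost without either QKI7 input, QKI7 footprint 2 or either vector footprint (0.0569 to 0.147).

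**Figure D3:**
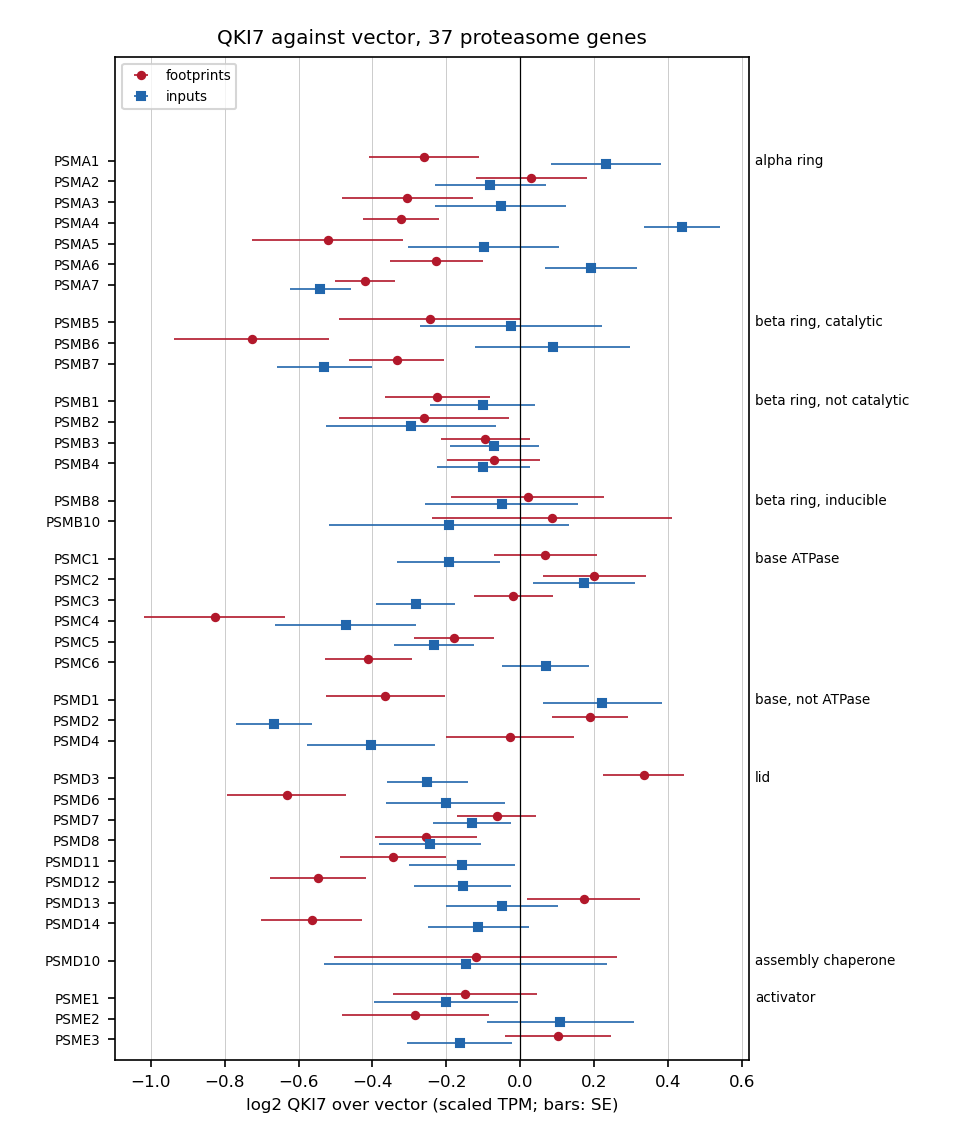
Log2 change of QKI7 against vector cells in footprints and in inputs (scaled TPM) for the 37 tested genes by role, with bars for the SE. Circles are footprints and squares are inputs. Footprint changes ran from -0.83 (PSMC4) to 0.33 (PSMD3) and input changes from -0.67 (PSMD2) to 0.44 (PSMA4).

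Translation efficiency, the change in footprints minus the change in inputs, differed for 3 of the 37 genes with limma: PSMD2 and PSMD3 were higher and PSMA4 was lower in QKI7 cells. Over all genes 8.64% were higher and 2.09% lower. The median was 0.03 for the members, with -0.07 for core and 0.03 for regulatory genes, beside 0.07 for all genes. PSMD2 had 258 and 214 scaled TPM in QKI7 footprints, against 204 and 207 in vector footprints, so that its footprints were not lower as its inputs were. The difference was 0.86 ± 0.145 (adjusted p = 0.00912). PSMA4 showed the opposite arrangement, with 665 and 627 in QKI7 footprints, against 797 and 819 in vector footprints, and more mRNA in the inputs. Its difference was -0.76 ± 0.146 (adjusted p = 0.016). PSMD3, a lid subunit, had 143 and 161 in QKI7 footprints, against 123 and 117 in vector footprints, and 180 and 194 in QKI7 inputs, against 233 and 212 in vector inputs, giving 0.59 ± 0.155 (adjusted p = 0.048).

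All 3 efficiency calls depended on single libraries. Without QKI7 input 1 none was called, with adjusted p = 0.0506 for PSMD2, 0.0656 for PSMA4 and 0.19 for PSMD3. PSMD2 was also lost without vector input 1 (adjusted p = 0.0504) and PSMA4 without vector input 2 (0.0543), while PSMD3 was lost in 7 of 8 such fits, all but the one without QKI7 footprint 1, with adjusted p of 0.0559 to 0.193. With library-type weights, PSMD2 and PSMA4 kept their calls (adjusted p = 0.0101 and 0.0333) and PSMD3 did not (0.0679), where 8.05% of all genes were higher and 1.81% lower. On simulated data an efficiency change of 0.5 on the log2 scale was recovered for 3.5% of genes and a change of 1 for 61%, so small changes would mostly be missed.

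**Figure D4:**
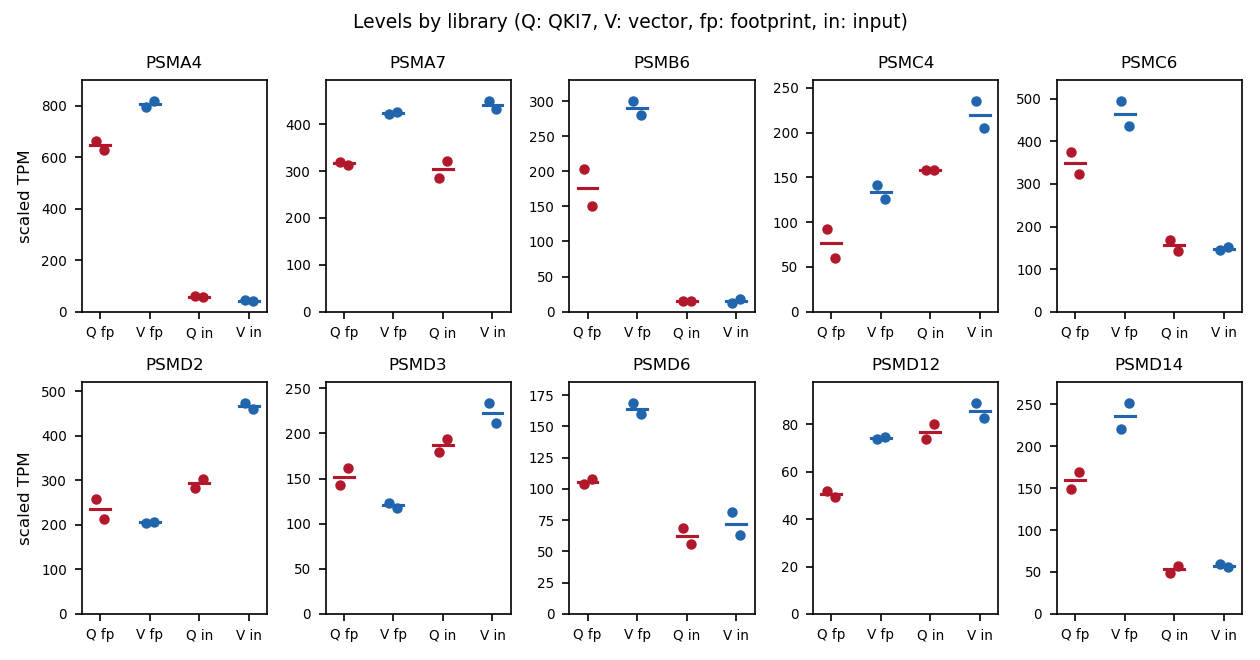
Scaled TPM of the 10 members called between constructs in each library, with QKI7 left of vector within footprints and within inputs. Points are libraries and short lines are means of 2. PSMA7 was lower in QKI7 cells in footprints (319 and 314, against 422 and 425) and inputs (284 and 322, against 449 and 433), while PSMD2 was lower in inputs (283 and 304, against 473 and 459) and not in footprints (258 and 214, against 204 and 207).

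The inducible catalytic subunits replace constitutive ones in the immunoproteasome, PSMB8 in place of PSMB5 and PSMB10 in place of PSMB7. The ratio of PSMB5 to PSMB8 levels was 1.23 and 0.892 in QKI7 footprints and 1.36 and 1.16 in vector footprints, against 2.19 and 1.67 in QKI7 inputs and 2.10 and 1.67 in vector inputs. Footprint libraries lay below input libraries in both constructs, and the constructs overlapped in inputs. The ratio of PSMB7 to PSMB10 was 5.55 and 6.78 in QKI7 footprints and 13.9 and 4.87 in vector footprints, against 2.16 and 2.31 in QKI7 inputs and 2.78 and 2.85 in vector inputs. For this pair footprint libraries lay above input libraries, the vector footprints enclosed the QKI7 footprints, and QKI7 inputs lay below vector inputs. None of PSMB8, PSMB10, PSME1 and PSME2, all of which interferon is known to induce, was called between constructs in inputs, footprints or efficiency by limma, with log2 changes in footprints of -0.28 to 0.09. PSME4 had 28.3 and 27.7 scaled TPM in QKI7 footprints, against 12.3 and 17.9 in vector footprints, a log2 change of 0.87 in the limma fit without a filter (adjusted p = 0.044). On TPM as deposited the change was 0.09 and was not called (adjusted p = 0.664). The deposited values of PSME4 were 0.18 and 0.18 in QKI7 footprints, against 0.09 and 0.13 in vector footprints. With 1 added before the log such low values can hardly differ, so that fit cannot decide whether the call holds. The PSME4 inputs were called higher there by 0.26 (adjusted p = 0.0224), a call that the fit without a filter did not make (0.17, adjusted p = 0.937).

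Genes that serve the proteasome moved in both directions. Of 21 assembly factors and regulators listed, 9 were tested with limma. In footprints 3 were higher and 2 lower in QKI7 cells, where 15.9% of all genes were higher and 10.1% lower. Their median log2 change was 0.00, beside 0.01 for all genes. ZFAND2A, an arsenite-inducible factor that binds the proteasome, had 83.3 and 101 scaled TPM in QKI7 footprints, against 42.5 and 19.3 in vector footprints (1.64, adjusted p = 0.00542). In inputs it had 507 and 507 in QKI7 cells, against 348 and 348 in vector cells, a change of 0.54 that did not pass (adjusted p = 0.396). The fit shares the spread of a gene between inputs and footprints, so the spread of the ZFAND2A footprints enters this p as well. NFE2L1, the transcription factor that raises proteasome gene expression, was higher by 0.54 (adjusted p = 0.0271), and PSMG3, an assembly chaperone of the core, by 0.63 (adjusted p = 0.0476). ADRM1, a ubiquitin receptor of the base, had 88.0 and 101 in QKI7 footprints, against 144 and 137 in vector footprints (-0.56, adjusted p = 0.00573), and was also lower in inputs (-0.48, adjusted p = 0.0296). TXNL1, a thioredoxin that binds the regulatory particle, was lower by -0.70 (adjusted p = 0.0368). POMP, the maturation factor of the core, had 338 and 341 in QKI7 footprints, against 380 and 304 in vector footprints, which overlapped. With library-type weights the footprint calls for NFE2L1, PSMG3 and TXNL1 were lost (adjusted p = 0.0839, 0.132 and 0.152). Each of the 3 was also lost without any 1 of the 4 inputs or without vector footprint 1, NFE2L1 and PSMG3 without QKI7 footprint 2, PSMG3 and TXNL1 without QKI7 footprint 1, and TXNL1 without vector footprint 2 (0.0515 to 0.154). ADRM1 lost its input call without any 1 of the 4 input libraries (0.171 to 0.196).

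Of 13 genes described for ubiquitin supply and shuttling, 8 were tested. With limma 2 were lower and 0 higher in QKI7 inputs, where 4.84% of all genes were lower and 1.09% higher. Their median log2 change was -0.05, beside -0.01 for all genes. RPS27A, which encodes a fusion of ubiquitin with a ribosomal protein, had 360 and 372 scaled TPM in QKI7 inputs, against 604 and 625 in vector inputs (-0.74, adjusted p = 0.00035). UBB, a polyubiquitin gene, had 854 and 817 in QKI7 inputs, against 1133 and 1077 in vector inputs (-0.40, adjusted p = 0.00512), a call that was lost without vector input 1 (adjusted p = 0.0528). For both genes the input groups did not overlap. In footprints 1 of the 8 was lower and 1 higher, beside 10.1% and 15.9% of all genes, with a median of 0.04. RPS27A had 1579 and 1551 in QKI7 footprints, against 2306 and 2501 in vector footprints (-0.62, adjusted p = 0.00041). Of 80 other ribosomal protein genes tested, 58.8% were called lower in QKI7 inputs and 60% in QKI7 footprints, so the RPS27A change was not particular to ubiquitin genes. NPLOC4, a cofactor of the segregase VCP, had 66.0 and 72.2 in QKI7 footprints, against 34.3 and 35.9 in vector footprints (0.96, adjusted p = 0.000913). On TPM as deposited it was not called, but 1 added before the log compresses changes of such low footprint values, so that fit cannot decide whether the call holds.

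Other large complexes were described in the same way. Ribosomal protein genes, 80 of them tested, had a median log2 ratio of footprint to input of 2.57 in QKI7 cells and 2.51 in vector cells, values like those of the proteasome core. Their median change in QKI7 cells was -0.46 in inputs and -0.32 in footprints. The 8 genes of the chaperonin TRiC had a ratio of 0.12 in QKI7 cells and 0.64 in vector cells, nearer to the regulatory genes, with a median change of 0.12 in inputs and -0.42 in footprints. Of the 8, 5 were called lower in QKI7 footprints by limma (CCT2, CCT4, CCT5, CCT6A and CCT8), where 10.1% of all genes were lower. With library-type weights, where 3.31% of all genes were lower, 1 of the 5, CCT6A, kept its call (adjusted p = 0.0261). These medians are descriptions, and the differences between complexes were not tested.

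Sequence copies limit some of these values. Pseudogene copies were counted by name, as RefSeq symbols made of the gene's symbol and the letter P, so copies under other names would be missed. By this count 20 of the 42 members have copies, PSMC1 alone 13, and another RefSeq gene overlaps 18 members. For 14 members neither was found, among them PSMA4, PSMB6 and PSMC4. PSMA7, PSMD2, PSMD12 and PSMD14 each have 1 copy and PSMC6 has 3, and PSMD6 is overlapped by the antisense genes PSMD6-AS1 and PSMD6-AS2. The sources used here do not state whether reads were assigned by strand, so the values of members with a copy or an overlapping gene are uncertain to that extent.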

How the data were processed

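The authors deposited 1 table of TPM for 26902 entries in 8 libraries. Per the submitters' processing notes STAR, RSEM 1.2.31 and the GRCh38 build were used, with no settings stated. TPM keeps no depth, so read numbers are unknown and no counting interval is given. Entries were matched to RefSeq (GRCh38.p14), 23970 by symbol and 1360 by an older symbol, and 1572 had no match. The 18751 protein-coding entries were rescaled to a total of 1000000 per library and by median ratios.

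Groups came from the sample labels. Log2(scaled TPM + 1), a scale that understates changes of low values, was fitted with limma 3.58.1 (R 4.3.3), using lmFit and eBayes(trend) with 4 residual degrees of freedom. In the fit on TPM as deposited 1 was also added before the log, which compresses changes of the low footprint values there. The spread of each gene was estimated over inputs and footprints together, so its SE was the same in both. A missed or lost call in inputs can therefore reflect the spread of footprints, and the reverse. In the fit with library-type weights, inputs had a weight of 2 and footprints 0.499. The 3205 genes tested averaged 0.2 TPM or more, as deposited, in inputs and in footprints. P-values were two-sided and Benjamini-Hochberg adjusted over these genes, with 0.05 as threshold. The smallest p of an exact permutation test at 2 against 2 libraries is 0.333. Tested on simulated data in which 200 genes changed, the fit recovered 96% of log2 changes of 1 in inputs and 93% in footprints, and 13% and 28.5% of changes of 0.5. Each setting was drawn a single time, and genes of the same level in a library type shared their spread. In the data spread also differs between genes of the same level, so the rates of recovered and false calls may not hold there. Because of false footprint calls there, a fit with library-type weights was added after seeing the data. Other alternatives were scaling, pseudocount, filter, variance trend, replicate block and single libraries left out. Named genes were the members and those past the threshold in the related lists. Members and lists were chosen with earlier results of these data known. Some genes of the ubiquitin list are not reported here and are left out of its counts.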

Additional observations from a re-analysis of the deposited data

Results flagged for a closer look

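The effect of QKI7 differed between footprints and inputs for 3 proteasome genes, as tested by the interaction of construct and library type in limma. For PSMD2 the difference was 0.86 on the log2 scale (adjusted p = 0.00912), from 0.19 in footprints and -0.67 in inputs. For PSMD3 it was 0.59 (adjusted p = 0.048), from 0.33 in footprints and -0.25 in inputs. For PSMA4 it was -0.76 (adjusted p = 0.016), from -0.32 in footprints and 0.44 in inputs. The cause of these differences was not tested.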

How the results depend on the processing

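Counts of members called are given here against 3 in inputs, 7 in footprints, 3 for efficiency, 32 for footprint against input in vector cells and 35 in QKI7 cells. Equal sums gave 11 in footprints, where the median of all genes moved to -0.13. TPM as deposited, with 32 members tested among 5806 entries, gave 8 in inputs (4 higher, 4 lower, beside 44.6% of all entries called) and 8 for efficiency (1 higher, 7 lower, beside 25.2%), with the all-entry medians at 0.15 and -0.16. A filter at 1 TPM left 19 members and gave 4 in footprints, 16 in vector cells and 18 in QKI7 cells, partly because fewer genes were tested. No filter gave 1 in inputs, 4 in footprints and 1 for efficiency. Without a variance trend 0 were called in inputs. Library-type weights gave 8 in inputs, where 6.08% of all genes were higher and 12.5% lower. They gave 1 in footprints, where 9.3% were higher and 3.31% lower. Leaving out 1 library gave 0 to 4 in inputs, 3 to 7 in footprints, 0 to 4 for efficiency, 28 to 34 in vector cells and 30 to 36 in QKI7 cells. Except for the filter at 1 TPM, the cause was not tested.

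The difference of core minus regulatory medians between constructs turned to 0.017 in footprints (from -0.103) and to 0.06 for efficiency (from -0.102) without QKI7 footprint 1, and over all single libraries left out it ran from -0.219 to 0.017 and from -0.261 to 0.06. Core exceeded regulatory in footprint against input in all 34 recomputed medians. Footprint-against-input calls passed the threshold in the same direction in every setting that tested the gene for 14 of 35 members in QKI7 cells. In vector cells this held for 16 of 32, and between constructs for 0 of the 7 footprint, 3 input and 3 efficiency calls. The sign of the log2 change differed in some setting for 16 of the 35 and 11 of the 32. It differed for 0 of the calls between constructs, which lost the threshold and not the direction. The labels do not say whether same-numbered libraries came from the same sample. Deviations of same-numbered libraries correlated at -0.07 to 0.01 over genes, so no shared deviation was seen, which cannot show that the libraries were unpaired. The fit with the replicate block called 2 members in inputs, 6 in footprints, 2 for efficiency, 32 in vector cells and 34 in QKI7 cells.

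Counts over all genes moved by more than 1.5 times, in part over other numbers of genes tested. In inputs 190 genes were called, against 2587 on TPM as deposited, 66 without a variance trend, 595 with weights and 94 to 219 without 1 library. In footprints 836 were called, against 476 on TPM as deposited, 404 with weights and 1750 without a filter. For efficiency 344 were called, against 1461 on TPM as deposited, 532 without a filter and 117 to 434 without 1 library. The unknown read depth limits what can be said of low footprint values.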
